A study of Rattus norvegicus with 8 samples.

Results

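The 8 genes described here, Sult1e1, Edn2, Ptgfr, Prlr, Snap25, Cebpb, Runx1 and Runx2, are linked to luteinization, the change by which ovarian granulosa cells become progesterone-secreting luteal cells around ovulation. They were taken by name, with every probe set whose platform annotation gave one of these symbols and no other. This found 11 probe sets for 7 of the 8 genes, among 14217 named genes on the array. No probe set was matched to Runx2, which is not analysed here. Of the 7 genes, 6 were measured, meaning that 2 or more arrays gave a signal over that array's own median, as was the case for 10513 named genes. The exception was Ptgfr.

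RNA of rat granulosa cells, which surround the oocyte and make oestradiol, was hybridised to 8 Affymetrix whole-genome arrays. In the design all animals were immature rats given eCG, a gonadotropin that makes follicles grow. After 24 h they received either antibody against eCG, which brings on atresia (degeneration of the follicle), or pre-immune serum, under which the follicles go on to develop. Per the design text, 0% of oocytes of the antibody-treated rats and 30 to 50% of those of the serum-treated rats gave young at term once transferred. The arrays are labelled with a number alone, so none could be placed in either treatment, and no comparison of treatments was made. Nor do the labels say whether 1 array held RNA of a single animal or of several, so the spread between arrays can be technical as well as biological. Arrays are called by their label numbers, and their number limits the precision.

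Luteinization follows the surge of luteinizing hormone, which raises cAMP in granulosa cells of the preovulatory follicle. Transcription factors induced or activated in that period, among them C/EBP-beta and RUNX proteins, act on genes of ovulation, follicle rupture and luteal steroid output. The corpus luteum then depends in rodents on prolactin for its upkeep, and prostaglandin F2-alpha, acting through its receptor on luteal cells, brings about its regression.

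Granulosa markers were measured, and so were some markers of other cell types. All 8 of the granulosa markers with a probe set, of 9 listed, were measured, and the lineage factor Foxl2 gave 3572 to 10432. Summed over these 8 genes, the granulosa signal ran from 382160 to 518910. The floor, which is the 40th percentile of an array and is used here as the level under which signals carry no order, ran from 273 to 471. Leukocyte Ptprc, oocyte Zp1 and stromal Des lay below the floor on all 8 arrays, thecal Cyp17a1 on 5, thecal Insl3 on 3 and endothelial Pecam1 on 4. By contrast leukocyte Cd14 (925 to 1882), stromal Acta2 (782 to 3072) and Col3a1 (329 to 1543) and endothelial Esam (558 to 1120) were above it on all 8. Oocyte Gdf9 (61.7 to 1189) lay below the floor on 1 array only and oocyte Zp2 (165 to 801) on 3. Of the genes with a probe set, 6 of 8 leukocyte, 6 of 8 stromal, 4 of 6 endothelial, 3 of 5 thecal, 2 of 5 oocyte and 3 of 3 erythroid markers were measured, and their part in the members' signals was not tested. Summed over a list, signals ran from 1103 to 5546 for 5 thecal genes, 1558 to 4077 for 6 endothelial, 3734 to 6322 for 8 leukocyte, 3343 to 6135 for 8 stromal, 760 to 2916 for 5 oocyte and 4280 to 48924 for 3 erythroid genes. Lhcgr, also listed among ovulatory and luteal genes, made up much of the thecal sum, with 3703 of 4445 on array 2199. No listed marker had a signal of 0. Arrays 2074, 2076 and 2195 stood apart. Array 2195 had the lowest median Pearson correlation with the other arrays (0.829, against 0.859 for 2074, 0.865 for 2076 and 0.875 to 0.881 for the rest) and the highest floor. Arrays 2074 and 2076 both lay above the other 6 in 13.8% of measured genes and both below in 13.7%. On that pair the ratio of the 3' to the 5' control probe set of beta-actin, which rises when RNA is degraded, was 11.0 and 12.1, against 4.67 to 8.08 on the others; that of GAPDH, at 6.66 and 6.07, lay within the others' 5.27 to 8.81. The ratio of hexokinase was 1.32 on 2074 and 8.60 on 2076, against 0.553 to 5.13 on the others. The beta-actin and GAPDH ratios were over 4 on all 8 arrays, so the RNA of the other 6 is not shown to be intact. The erythroid sum was highest on 2074, where Hbb made up 45704 of 48924. Alas2 was highest there too (3193), while Slc4a1 was lowest there (26.6, below the floor).

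Promoter sequences are shown for the 3 measured genes with the widest full range over arrays, as the context in which their signals are read. Each is the 250 bases before the start site in RefSeq's GRCr8 annotation, 5' to 3' on the plus strand. For Sult1e1 this is chr14:20701230-20701479, for Edn2 chr5:139036326-139036575 and for Cebpb chr3:176816755-176817004. Capitals mark matches on either strand to 5 short motifs.
Sult1e1: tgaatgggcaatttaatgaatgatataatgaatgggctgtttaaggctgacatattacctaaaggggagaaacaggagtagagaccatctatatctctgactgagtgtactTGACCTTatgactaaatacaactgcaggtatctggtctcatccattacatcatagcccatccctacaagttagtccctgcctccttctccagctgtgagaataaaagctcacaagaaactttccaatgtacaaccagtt
Edn2: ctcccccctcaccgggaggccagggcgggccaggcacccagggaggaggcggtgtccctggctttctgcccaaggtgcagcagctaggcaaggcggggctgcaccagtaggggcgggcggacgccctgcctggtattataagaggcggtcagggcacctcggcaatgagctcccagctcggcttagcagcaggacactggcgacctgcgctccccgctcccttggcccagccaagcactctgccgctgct
Cebpb: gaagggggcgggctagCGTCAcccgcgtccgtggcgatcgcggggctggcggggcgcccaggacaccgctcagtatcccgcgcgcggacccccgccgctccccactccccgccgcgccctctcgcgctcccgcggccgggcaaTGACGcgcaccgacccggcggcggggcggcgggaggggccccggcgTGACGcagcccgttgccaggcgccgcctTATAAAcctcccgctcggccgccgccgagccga
The motifs, with the share of 33469 promoters of that length that held each, were the cAMP response element core TGACG (18.2%), the C/EBP motif TTGCNNAA (9.22%), the RUNX motif TGNGGT (41.0%), the SF-1 motif AAGGTCA (3.99%) and the TATA box TATAAA (12.9%). No 2 of the matches shown overlap. In Sult1e1 the only match was SF-1, on the reverse strand, starting at position -139 from the start site. Cebpb held 3 cAMP response element cores, starting at -234, -107 and -61, and a TATA box at -33. Edn2 held none of the 5. The table of promoters matched 7 of the 8 genes, and Snap25 was the exception. The arrays did not measure binding at these matches, and a match is a description of letters only.

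The signals of most measured genes of the group spread more than those of a typical gene. The measure of spread is the inner range, the second highest over the second lowest array, which drops the single highest and lowest. At least 2-fold was reached by 5 of the 6 measured genes, where 29.8% of all measured genes reached it, and the median over the 6 was 2.17-fold against 1.71-fold over all. Part of this was known when the genes were listed, so the count describes these 6 genes and no test was made. The count depended on which arrays were kept. Leaving out 1 array at a time gave counts of 2 to 5, with 2 without array 2076 (18.8% of all measured genes), 3 without 2074 (18.9%) and 3 without 2194 (24.7%). Over arrays 2194 to 2199 alone, 2 of the 6 reached 2-fold, against 12.1% of measured genes, and 0 of the 6 when array 2195 was left out as well, against 5.69%.

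**Figure D1:**
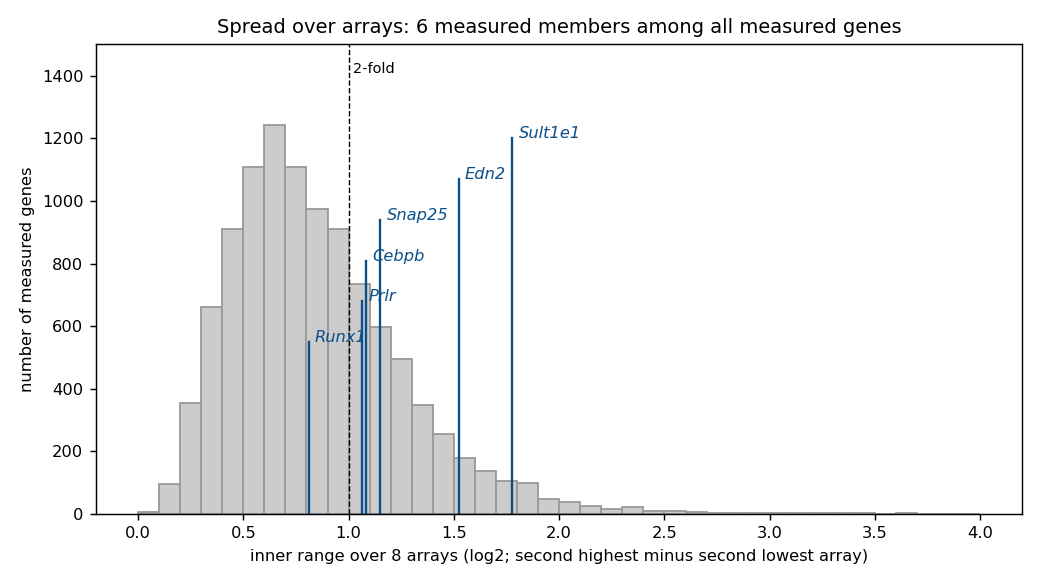
Number of measured genes (vertical axis) by inner range on the log2 scale (horizontal axis), with the 6 measured members as blue lines of arbitrary height and the 2-fold mark dashed. Sult1e1 (1.78) and Edn2 (1.52) lie in the right tail, and Runx1 (0.81) lies left of the 2-fold mark.

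Sult1e1 encodes oestrogen sulfotransferase, which inactivates oestradiol by adding a sulfate group. Its scaled signals were 2297 on array 2074, 7879 on 2076, 4014 on 2194, 2869 on 2195, 5911 on 2196, 4863 on 2197, 10856 on 2198 and 1354 on 2199. The gene was thus high on 2198 and 2076 and low on 2199 and 2074, with the pair 2074 and 2076 on opposite sides. Its inner range was 3.43-fold, wider than in 97.0% of measured genes, and its full range was 8.02-fold. At least 2-fold was kept under 17 of 18 alternative settings. The exception was arrays 2194 to 2199 without 2195, at 1.47-fold. The settings of the floor, the filter, the mean of probe sets and the full range could not lower the inner range. All 8 signals lay well above the floor and above the array median, and no other probe set named the gene.

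Edn2 encodes endothelin-2, a vasoconstrictor peptide that granulosa cells make for a short time around follicle rupture. It gave 3370 on array 2074, 14496 on 2076, 9677 on 2194, 5912 on 2195, 6194 on 2196, 4351 on 2197, 5418 on 2198 and 2242 on 2199. Arrays 2076 and 2194 were high, 2199 was low, and the other 5 lay within 3370 to 6194. The inner range was 2.87-fold, wider than in 93.7% of measured genes, and the full range was 6.47-fold. Without array 2076 or array 2194 the inner range was 1.84-fold, and over arrays 2194 to 2199 it was 1.41-fold, so the 2-fold mark was passed only with both high arrays in.

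Ptgfr, the receptor for prostaglandin F2-alpha, was too weak on these arrays for its order to be read. Probe set 1369127_a_at lay below the floor on 5 of 8 arrays and above the array's median on 1, array 2198, where it gave 1078. On the other 7 it ran from 86.1 to 453. The second probe set, 1369126_at, lay below the floor on 7 arrays and gave 10.2 to 383, with 45.6 on array 2198. The high value of the first probe set on 2198 was therefore not shared by the other. Low signal does not show that the receptor was absent.

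Prlr, the receptor for prolactin, was read by 3 probe sets, and these disagreed. Probe set 1370384_a_at gave 42779 on array 2074, 50610 on 2076, 20484 on 2194, 24550 on 2195, 27289 on 2196, 23290 on 2197, 31909 on 2198 and 20385 on 2199. Arrays 2074 and 2076 both lay above the other 6, with no overlap. The inner range was 2.09-fold, wider than in 74.7% of measured genes.

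The other pair of Prlr probe sets did not show that pattern. Probe set 1370789_a_at gave 4844 on array 2074 and 5158 on 2076, against 3471 to 8826 elsewhere, with 2195, 2197 and 2198 highest. Its inner range was 1.74-fold. Probe set 1369493_at gave 959 and 885 on the pair against 373 to 1817 on the rest, and its inner range was 2.43-fold. To compare orders, each of the 28 pairs of arrays was checked for whether both probe sets were higher on the same array of the pair; a median of 14 was found over all measured genes against the brightest Prlr probe set. That probe set and 1370789_a_at ordered 12 of the 28 pairs alike, it and 1369493_at 14, and the latter 2 probe sets 18. The suffix _a_at marks a probe set that matches several transcripts of a gene, and which transcript forms each set reads was not established here. With the mean of the 3 probe sets the inner range of Prlr was 1.77-fold.

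The 2-fold spread of Prlr rested on few arrays. Without array 2074 or 2076 the brightest probe set had 1.55-fold, and without 2194 or 2199 it had 1.83-fold. Over arrays 2194 to 2199 alone it had 1.32-fold. The part of the beta-actin 3' to 5' ratio and of the erythroid sum, mostly Hbb, both high on array 2074, was not tested.

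Snap25 encodes a membrane-fusion protein of the SNARE family, best known from nerve terminals. It gave 4011 on array 2074, 10834 on 2076, 7869 on 2194, 12876 on 2195, 17648 on 2196, 7042 on 2197, 6142 on 2198 and 5800.4 on 2199. Arrays 2196, 2195 and 2076 were high and 2074 was lowest, so arrays 2074 and 2076 again lay on opposite sides. The inner range was 2.22-fold, wider than in 80.2% of measured genes, and the full range 4.40-fold. It was 1.864-fold without array 2195 and 1.865-fold without 2196. Over arrays 2194 to 2199 it was 2.075-fold, and 1.29-fold when 2195 was also left out.

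Cebpb encodes C/EBP-beta, a transcription factor that mediates luteinizing hormone responses in granulosa cells. It gave 14358 on array 2074, 25439 on 2076, 6777 on 2194, 10715 on 2195, 8495 on 2196, 6929 on 2197, 7174 on 2198 and 4860.1 on 2199. As with the brightest Prlr probe set, arrays 2074 and 2076 lay above the other 6 with no overlap. Of the 6 measured genes these were the 2 with that pattern, which 13.8% of all measured genes had. The inner range was 2.12-fold and the full range 5.23-fold. Without 2074 or 2076 the inner range was 1.57-fold, and over arrays 2194 to 2199 it was 1.245-fold. That last range covers the middle 4 of 6 arrays, whose full span was 4860.1 to 10715.

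Runx1, a DNA-binding transcription factor induced in granulosa cells before ovulation, was the measured member that did not reach a 2-fold inner range. Its brighter probe set, 1368914_at, gave 41883 on array 2074, 65478 on 2076, 78112 on 2194, 95178 on 2195, 116076 on 2196, 98992 on 2197, 56460.1 on 2198 and 75411 on 2199. The inner range was 1.75-fold, wider than in 53.3% of measured genes. It stayed under 2-fold in 17 of 18 alternatives, the exception being the full range, at 2.77-fold. The settings of the floor and the filter could not change it, as all 8 signals lay above the floor and the array median. Probe set 1395442_at gave 10268 to 25317, with an inner range of 1.55-fold. Both probe sets were lowest on array 2074, and they ordered 19 of 28 array pairs alike. They differed on array 2198, which was second lowest in the first and among the 3 highest in the other.

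**Figure D2:**
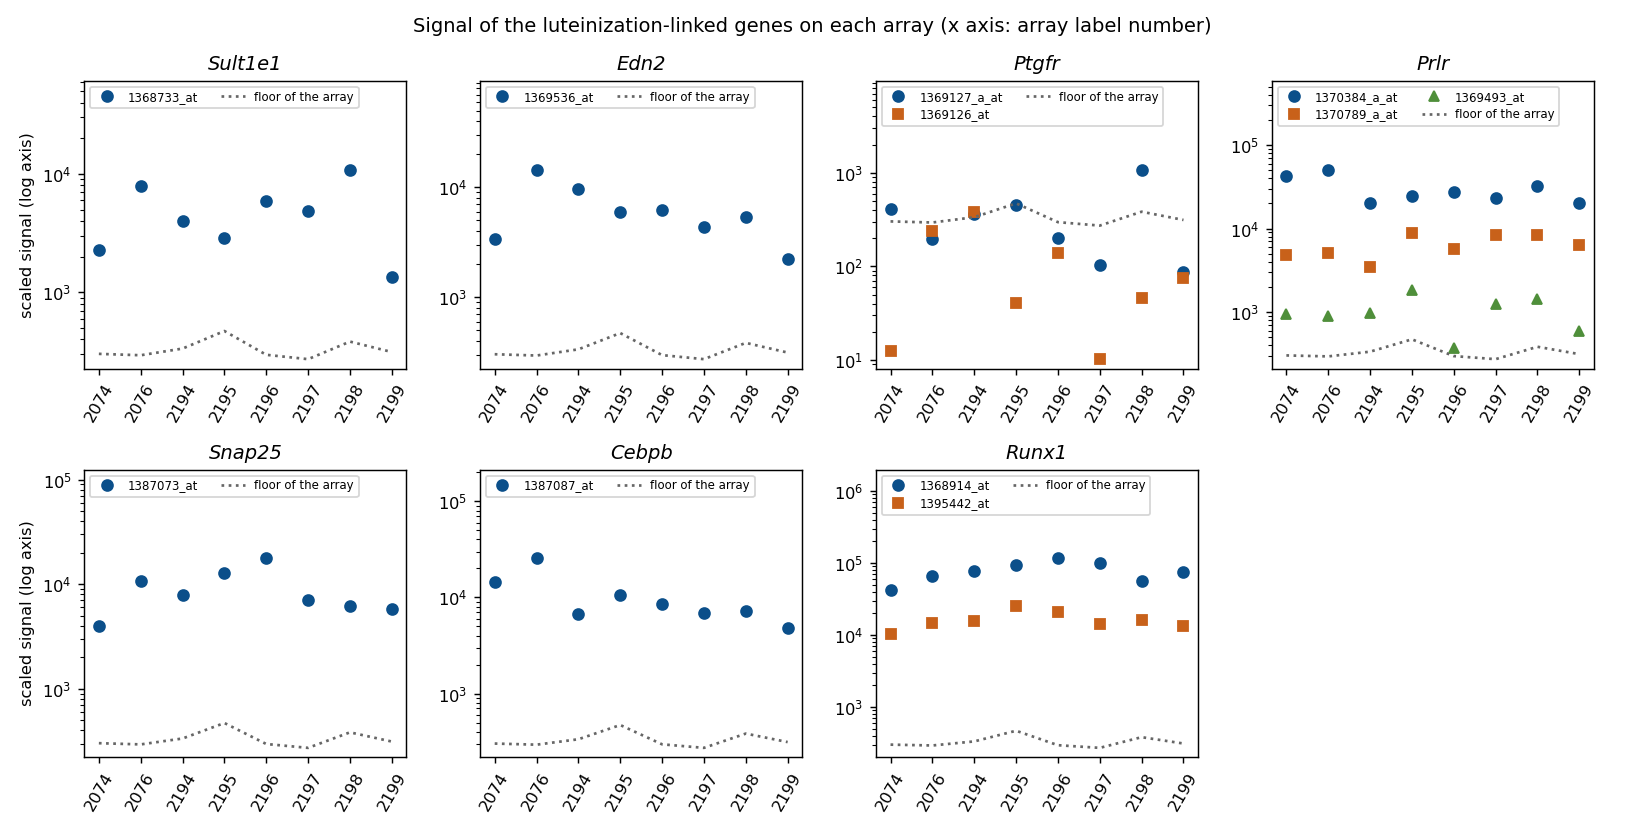
Scaled signal on a log axis (vertical) of each probe set of the 7 genes with a probe set, by array label number (horizontal); dotted lines show the floor of each array. Both Ptgfr probe sets lie at or under the floor on most arrays, while Sult1e1, Edn2, Snap25, Cebpb and Runx1 lie above it on all 8.

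Array by array, the members did not rise and fall as 1 block. Array 2199 had the lowest signal in 4 of the 6 measured genes (Sult1e1, Edn2, Prlr and Cebpb), where it was the lowest in 13.5% of all measured genes, and array 2074 was lowest in the other 2, Snap25 and Runx1, against 16.9%. Array 2076 had the highest signal in 3 (Edn2, Prlr and Cebpb), where it was highest in 12.1% of measured genes, array 2196 in 2 (Snap25 and Runx1) against 6.94%, and array 2198 in 1 (Sult1e1) against 14.6%. Prlr is counted here by its brightest probe set, where the lowest place was nearly a tie (20385 on array 2199, 20484 on 2194). Its other probe sets were lowest on arrays 2194 and 2196, and both were highest on 2195. The arrays named in this count were singled out after the values were seen. On array 2199 the leukocyte sum was 5845 and the thecal sum 4445, both within the range of the other arrays. The 3' to 5' ratio there was 4.67 for beta-actin, 7.99 for GAPDH and 0.754 for hexokinase. Only array 2197, at 8.81, had a higher GAPDH ratio. What part cell mix or RNA quality had in the low signals on array 2199 was not tested. In whole-cell RNA, fewer cells of a type and less RNA in each cell cannot be told apart.

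**Figure D3:**
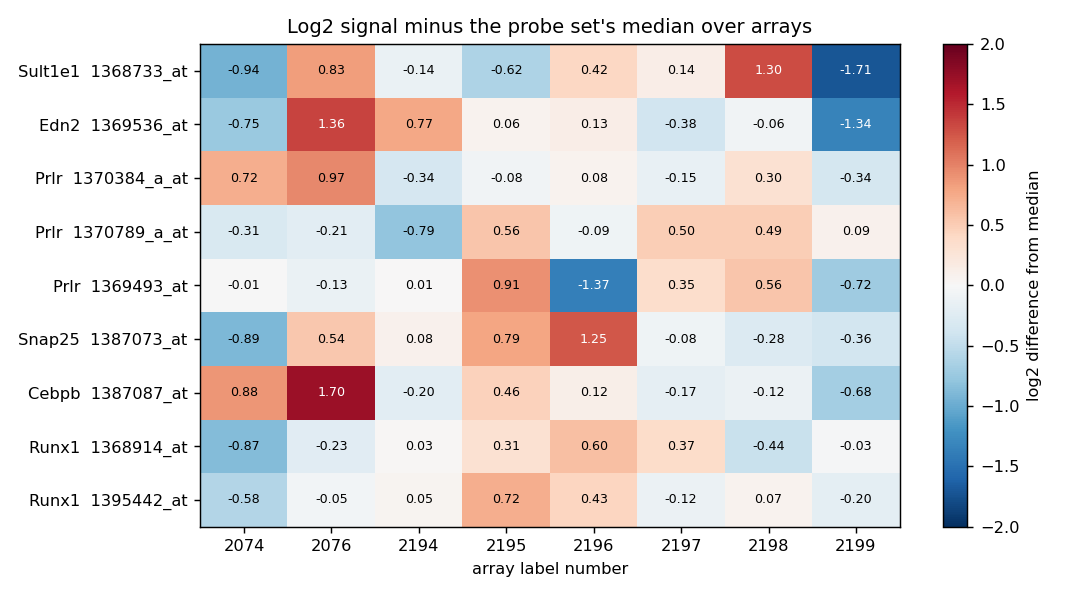
Log2 signal minus the probe set's median over 8 arrays (colour and printed number), for the 9 measured probe sets (vertical axis) by array label number (horizontal axis). Array 2199 is negative for Sult1e1 (-1.71), Edn2 (-1.34) and Cebpb (-0.68), and the 3 Prlr probe sets differ in sign on arrays 2074 and 2076.

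Some pairs of members shared an order of arrays and others did not. Over the 15 pairs of the 6 genes, the count of array pairs ordered alike ran from 11 to 25 of 28, with a median of 17. For each of the 6 the median over all measured genes was 14. Prlr, by its brightest probe set, and Cebpb were the most alike, at 25, and 1.21% of all measured genes were at least that like Prlr. This held for that probe set alone. Prlr probe sets 1370789_a_at and 1369493_at shared 13 and 15 with Cebpb, where their medians over all measured genes were 14 and 15. Below, Prlr again stands for its brightest probe set. Snap25 followed both Edn2 and Runx1 in 22. Of all measured genes, 1.89% were at least that like Edn2 and 2.73% at least that like Snap25. Sult1e1 ordered 21 as Edn2 did and 20 as Prlr did. A likeness to Sult1e1 of 21 or more was reached by 4.43% of measured genes and of 20 or more by 7.38%. At the low end Runx1 and Prlr shared 11 and Runx1 and Cebpb 12. Over arrays 2194 to 2199 alone, with 15 array pairs, Prlr and Cebpb still shared 12, Snap25 and Edn2 12, Snap25 and Runx1 12, and Sult1e1 and Prlr 13, whereas Sult1e1 and Edn2 shared 9.

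**Figure D4:**
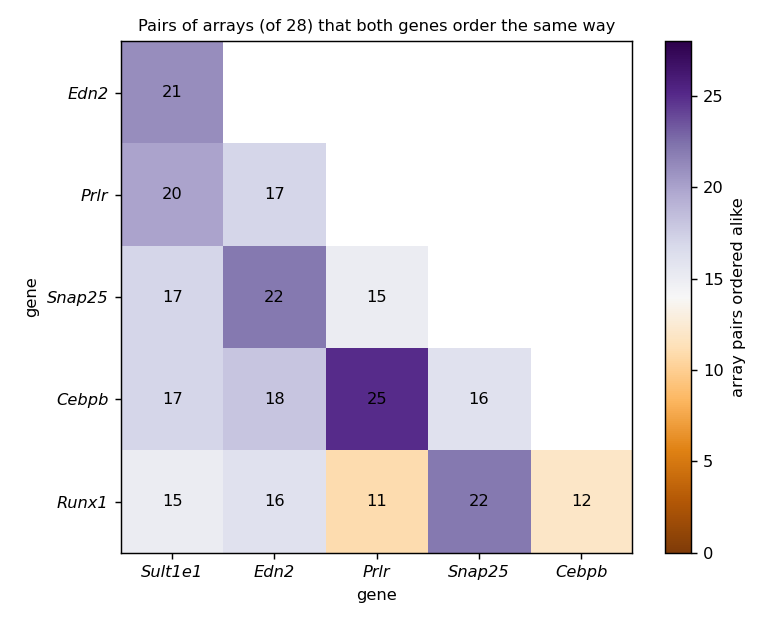
Number of the 28 array pairs that 2 genes order the same way, for each pair of the 6 measured genes (both axes), by their brightest probe sets. Prlr with Cebpb (25) stands highest and Prlr with Runx1 (11) lowest.

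Genes outside the group with the most similar profile were sought by the root mean square difference of log2 signals, each centred on its median, over 8 arrays. Nearest to Sult1e1 were Dgkz, a diacylglycerol kinase, at 0.37, the aldo-keto reductase gene Akr1b8 at 0.44 and Plat, tissue plasminogen activator, at 0.47, against a median of 1.05 over all measured genes. All 3 were lowest on array 2199. Nearest to Edn2 were Sash1 at 0.33, the co-chaperone gene Dnajb5 at 0.34 and Asns, asparagine synthetase, at 0.36, with a median of 0.93 over all. Dgkz and Dnajb5 were weak, with median signals of 497 and 326. Both lay below the floor of 313 on array 2199, at 225 and 156. Prlr had Mrps22 at 0.09, Necap1 at 0.12 and Ncaph2 at 0.13 (median 0.70), and all 3 were highest on array 2076. Snap25 had Ppfibp1 at 0.30, Bcas3 at 0.31 and Vav2 at 0.33 (median 0.82). Cebpb had Sh3gl1 at 0.19, Sec14l1 at 0.22 and Ncoa5 at 0.24 (median 0.92). With 10513 genes searched, close profiles are found for many genes, and no more is drawn from these names.

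Partners of the members in 7 pathway lists spread about as much as other genes. Of 77 listed genes 55 were measured, and 18 of these, or 32.7%, reached a 2-fold inner range, against 29.8% of all measured genes. Their median was 1.69-fold against 1.71-fold. The counts of single lists below are to be read beside that 29.8%.

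Around prolactin, 6 of 10 measured genes reached 2-fold, against 29.8% of all measured genes, with a median of 2.10-fold. Among the 6, the ranges of Jak2, Stat5b and Socs2 were lower bounds, and Socs2 lay below the floor on 5 arrays. The signal transducer Stat5b had at least 2.42-fold, Stat5a 2.41-fold and the inhibitor Socs1 at least 1.67-fold; bounds give no order. Stat5a ran from 453 on array 2194 to 2467 on 2198. A2m, alpha-2-macroglobulin, which prolactin induces in the rat corpus luteum, ran from 2530.1 on array 2199 to 12840 on 2076 and ordered 23 of 28 array pairs as the brightest Prlr probe set did. Hsd17b7, a steroid and cholesterol synthesis enzyme, shared 5. A2m, Hsd17b7, Jak2 and Socs2 were named after their values were seen.

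In the endothelin system 2 of 3 measured genes reached 2-fold. Ece1, which cleaves the endothelin precursors to active peptides, had 3.49-fold, with 9590.3 on array 2074, 8284 on 2076 and 2063 to 5946 elsewhere. Edn1, the gene of endothelin-1, had 2.07-fold, from 335 on array 2199 to 1541 on 2195, and Ece2 at least 1.76-fold. Edn2 shared 14 of 28 array pairs with Edn1, 18 with Ece1 and 20 with Ece2. So the 2 peptide genes did not follow each other closely. Ece2 lay below the floor on 2 arrays, so its count includes array pairs whose order cannot be read.

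For oestrogen conjugation and response, 3 of 7 measured genes reached 2-fold. Hsd17b1, which turns oestrone into oestradiol, had 2.44-fold and the phenol sulfotransferase Sult1a1 2.31-fold. Papss1, which makes the sulfate donor, had 1.34-fold. Sult1e1 ordered 13 array pairs as Sult1a1 did, 13 as Papss1, 14 as Hsd17b1 and 20 as Papss2, the other synthase of the sulfate donor.

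The prostaglandin list had 5 measured genes, of which 1 reached 2-fold. That was Ptgs2, the inducible cyclooxygenase, at 2.08-fold. It gave 9215 on array 2198 and 460 to 1281 on the other 7, and 2198 was also the highest array of Sult1e1. Ptges had 1.80-fold and Ptges2 1.56-fold.

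Among C/EBP and RUNX partners 0 of 8 measured genes were placed at 2-fold. Runx3 had at least 1.97-fold and Cbfa2t3 at least 1.94-fold, bounds that leave room for a range over 2-fold, and Cebpg had 1.32-fold. Cbfb, the shared partner subunit of RUNX proteins, and Cebpa each ordered 23 of 28 array pairs as Runx1 did. Both were named after their values were seen. Cebpb shared 7 with Cbfb and 13 with Cebpa.

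Of the SNARE machinery 2 of 9 measured genes reached 2-fold, Cplx1 (at least 2.05-fold) and Vamp2 (2.03-fold), while the plasma membrane syntaxin gene Stx4 had 1.11-fold. Snap25 shared at most 18 of 28 array pairs with any of the 9, that being Stx4, with a median of 12. Its order was nearer to Edn2 and Runx1 than to any of these.

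On ovulatory and luteal function, 4 of 13 measured genes reached 2-fold, led by Lhcgr (3.67-fold) and Scarb1 (2.71-fold), with Cyp11a1 at 1.24-fold. Timp1, an inhibitor of matrix metalloproteinases, ordered 26 of 28 array pairs as Cebpb did and 25 as the brightest Prlr probe set did. It gave 23658 on array 2074 and 21958 on 2076, against 7280.2 to 16562 elsewhere, the same separation of that pair. Rgs2, a regulator of G protein signalling, followed Snap25 in 24 and Edn2 in 22. Lhcgr shared 6 with each of Edn2 and Snap25, the reverse order for most array pairs. Apart from Lhcgr, Scarb1 and Cyp11a1, these genes were named after their values were seen.

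**Figure D5:**
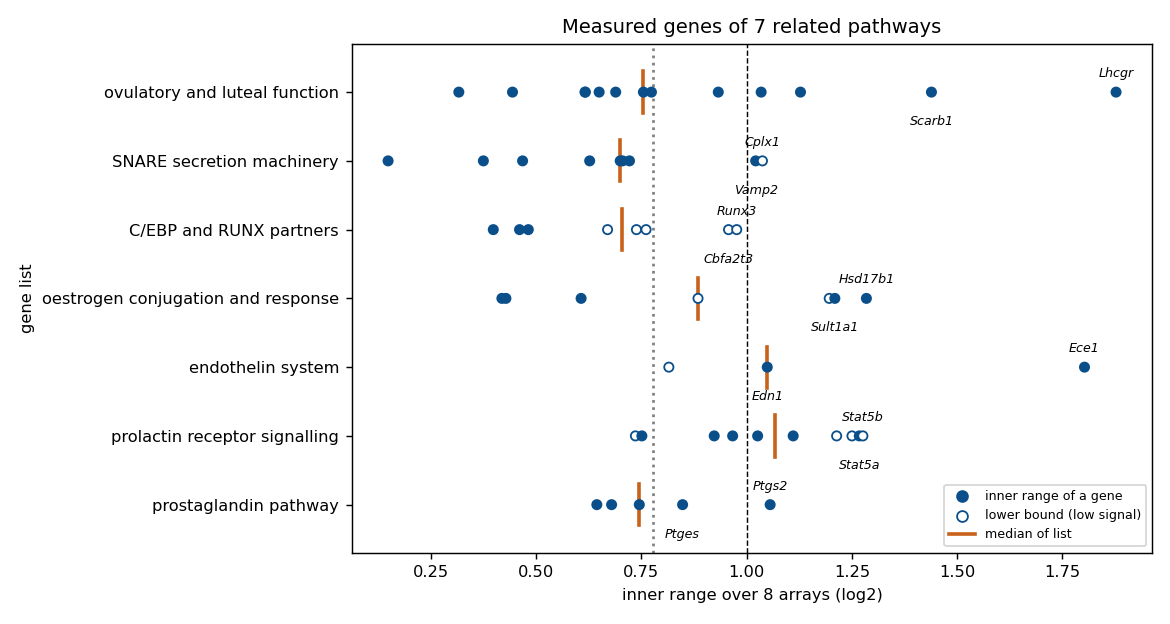
Inner range on the log2 scale (horizontal axis) of each measured gene of the 7 pathway lists (vertical axis); open circles are lower bounds, orange bars list medians, the dotted line the median of all measured genes (0.78) and the dashed line 2-fold. Ece1 and Lhcgr lie farthest right, and no C/EBP or RUNX partner, bounds included, is plotted past the dashed line.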

How the data were processed

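The authors made the deposited signal intensity values, on a linear scale, with MAS5, per the submitters' processing notes, which name no version. With 2% trimmed from either end, the mean signal was 1500.5 to 1500.6 on all 8 arrays, so arrays had been scaled before deposit. MAS5 is noisy at low signal, and no detection calls were used here. Of 31099 probe sets, 57 were controls; 20826 had 1 gene symbol, 436 had several and were left out. Symbols were updated through gene identifiers (20758) or accessions (2) in the GRCr8 gene table, and 66 kept the annotation's name, which can be old.

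Log2 signals were brought to 1 median, taken over probe sets that exceeded the array median on each of the 8 arrays, with Python 3.11.15, pandas 2.3.3 and numpy 2.4.6. Printed signals are scaled, before the floor; inner ranges are taken after raising values to the floor, and "at least" marks ranges that this touched. Orders of arrays and nearest profiles were taken from signals before the floor. The brightest measured probe set stood for a gene. No array had a group, so no mean, error or test between groups was computed. The step was tested on simulated data. The members and lists were chosen with earlier results of these data known. Named are all members, the 2 widest and 1 narrowest measured genes of each list (bounds taken as values), the 3 nearest profiles of each member at 2-fold or more, defining cell type markers, and genes said to be named after their values were seen. Also tried were deposited values unscaled, quantile normalization, the floor lowered to the 25th percentile or dropped, measurement required on all 8 arrays or not at all, averaging over probe sets of 1 gene, the full range, each array left out, and 2 subsets of arrays 2194 to 2199.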

Additional observations from a re-analysis of the deposited data

Results flagged for a closer look

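In a check of 70 profiles (members' probe sets, other named genes, marker sums and the beta-actin ratio) for an array far from the other 7, by the gap to the nearest array over the whole range on the log2 scale, 5 exceeded Dixon's 95% critical value for 8 samples; chance alone gives about 1 in 20. No member's probe set was among them. Ptgs2 had a ratio of 0.658, with 9215 on array 2198 and 460 to 1281 on the others. Ptges had 0.543, with 729 on array 2197 and 1469 to 2650 elsewhere. Papss1 had 0.553, with 1200 on array 2195 and 1745 to 2362 elsewhere. Des had 0.588 for array 2199, but all its signals lay below the floor. The summed erythroid markers had 0.527, with 48924 on array 2074 and 4280 to 13542 on the others.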

How the results depend on the processing

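The count of members at 2-fold or more was 5 with the primary settings and 4 to 6 of the measured members under no scaling, quantile normalization, either floor, either filter, the mean of probe sets and the full range, while the share of all measured genes ran from 19.4 to 71.4%. The 6 came from the full range, where that share was 71.4%, and a full range cannot fall below an inner range. The floor and filter settings could not move the inner ranges of the 6 measured members by their brightest probe sets. All signals of these probe sets lay above the floor and the array median. Such values count as unmoved below. The count was 2 over arrays 2194 to 2199 (12.1%), 0 without array 2195 as well (5.69%), and 2 to 5 with 1 array left out (18.8 to 25.2%). Dropping arrays narrows a probe set's inner range or leaves it, except through the scaling and floor, which were redone each time. Edn2 went that way from 2.87-fold to 2.91-fold without array 2195. The median share of array pairs that members ordered alike was 60.7%, and 52.4 to 71.4% with 1 array left out; the other alternatives gave 57.1 to 70%. Of 108 values of single genes under an alternative, 95 moved by less than 1 SD over arrays and 13 by 1 SD or more; 16 moved by over 1.5 times. Over arrays 2194 to 2199 Cebpb (1.245-fold) was narrower than Runx1 (1.318-fold). No paired analysis was possible because the labels put no array in a group. Signals near the floor, as for Ptgfr, limit what can be read.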
